A study of Mus musculus with 18 samples.

Results

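A panel of 10 genes that hold back MAP kinase signalling was followed through differentiated mouse brown adipocytes sampled around norepinephrine stimulation. They were chosen by name: the DUSP phosphatases Dusp1, Dusp4, Dusp5, Dusp6 and Dusp10, the Sprouty genes Spry1, Spry2 and Spry4, and the Sprouty-related Spred1 and Spred2. These 10 genes are 10 of the 45706 in the deposited table, and all 10 passed the filter on low counts that left 14788 genes for testing. The study sequenced total RNA from BMC, an immortalised line of murine brown preadipocytes, differentiated in culture and tested on day 7. Every library, at 0 h too, came from cells differentiated with 1 µM dexamethasone, 0.5 mM isobutylmethylxanthine, 0.125 mM indomethacin, 1 nM triiodothyronine and 20 nM insulin, and kept on the last pair of hormones from day 2. The labels place 6 libraries at 0 h, not induced, 6 at 4 h and 6 at 24 h after 1 µM norepinephrine, the sympathetic transmitter that acts on brown fat through adrenergic receptors. A single immortalised line stands for brown adipocytes here. Whether libraries of 1 time represent separate cultures is not stated, and p-values therefore reflect library-to-library spread that could be purely technical.

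Growth factor receptors and many other inputs switch on ERK, p38 and JNK, the MAP kinases, through chains of phosphorylation that pass through RAS for ERK. The DUSP phosphatases remove the activating phosphates from the MAP kinases themselves, whereas Sprouty and SPRED proteins act further up, between the receptor and RAF. Several of these genes are transcribed in response to the kinases that their products restrain, which makes them a negative feedback loop, and in brown adipocytes both cyclic AMP and p38 signalling lie downstream of norepinephrine.

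Each title carries, after the time, a replicate number from 1 to 6, so that each number has 3 libraries, 1 per labelled time. No label says what the numbers stand for. Earlier results of these data had shown the libraries falling into 3 sets of numbers, 3 and 6, 2 and 5, and 1 and 4, whatever their labelled time, and the genes are described here both by labelled time and by these sets. Because the sets were recognised in these data, a fold change between sets is given as a description with no p-value. Each pair of single numbers has its own adjusted p from edgeR. A gene is called higher or lower in a set only where both of its pairs passed 0.05 in the same direction. The titles define the numbers, but the pairs were picked to cross these sets. Their p-values and calls are therefore descriptive too, and are no test of the sets. Levels are in CPM, read counts put on a common library size after scaling for composition, and are comparable between libraries for 1 gene.

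The stretches upstream of 3 members are shown because these 3 differed most between the sets. Each window runs 5′ to 3′ from 250 bases before to 50 bases after the transcription start in RefSeq, on GRCm38.p6, the sequence behind mm10. Capitals mark matches to 4 motifs searched on both strands: the short cAMP response element TGACG, the full element TGACGTCA, which holds the short one on both strands with an overlap, the ETS core CCGGAA, and the CArG box by its name. Dusp1 is at chr17:26508423-26508722 on the minus strand, Dusp10 at chr1:184034131-184034430 on the plus strand and Dusp5 at chr19:53528895-53529194 on the plus strand. In GENCODE M21 the genes span chr17:26505590-26562128, chr1:184013302-184075636 and chr19:53529109-53542431, so the RefSeq starts of all 3 lie inside the annotated genes.
Dusp1: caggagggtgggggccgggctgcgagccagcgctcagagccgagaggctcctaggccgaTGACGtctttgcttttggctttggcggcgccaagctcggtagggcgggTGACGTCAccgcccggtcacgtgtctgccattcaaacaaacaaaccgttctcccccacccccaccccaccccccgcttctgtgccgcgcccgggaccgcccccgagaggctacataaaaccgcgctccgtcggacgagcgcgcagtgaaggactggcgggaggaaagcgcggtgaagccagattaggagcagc
Dusp10: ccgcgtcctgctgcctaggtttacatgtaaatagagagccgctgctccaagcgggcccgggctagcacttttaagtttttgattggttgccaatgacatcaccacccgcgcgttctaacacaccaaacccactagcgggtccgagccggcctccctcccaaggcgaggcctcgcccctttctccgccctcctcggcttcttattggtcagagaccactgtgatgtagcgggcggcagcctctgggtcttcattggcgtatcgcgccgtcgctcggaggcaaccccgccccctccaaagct
Dusp5: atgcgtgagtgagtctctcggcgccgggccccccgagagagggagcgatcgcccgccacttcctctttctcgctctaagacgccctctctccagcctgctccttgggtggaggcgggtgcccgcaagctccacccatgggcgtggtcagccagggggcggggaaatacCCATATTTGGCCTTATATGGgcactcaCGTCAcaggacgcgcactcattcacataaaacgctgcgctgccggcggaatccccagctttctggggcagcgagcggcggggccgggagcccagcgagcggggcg

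In the Dusp1 window a short element stood at base -191 and a full cAMP response element at base -143, counted from the start. The full element was present in 1.79% and the short one in 20.8% of 32851 RefSeq promoter windows of the same length. The Dusp5 window held adjoining CArG boxes at bases -82 and -72, a motif in 1.63% of windows, and a short cAMP response element on the minus strand at base -55. None of the 4 motifs was found in these letters of the Dusp10 window. Windows were available for 8 members in all. In the others, Spred2 had a short element at base -51 and Spry2 had the ETS core, found in 14.9% of windows, at base 34 past the start. A match describes letters only, and no binding was measured.

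Library totals ranged from 7010742 to 26501223 expected counts. The library labelled 24 h replicate 5 had the lowest total and stood apart in its content. The genes Yam1 and Gm26917, taken here as ribosomal RNA, held 41.5% of its counts against 6.78% to 10.6% in the other 17 libraries. No other ribosomal RNA gene was included in this share. Without that library, the number of members called in each comparison of times and of sets was unchanged. Of 15 brown adipocyte markers 14 passed the filter and Elovl3 did not. Their counts per library varied widely, from Fabp4 at 5452 to 76957 and Adipoq at 1617 to 21305 down to low values. Ucp1 had 15 to 415, Cox8b 8 to 148 and Dio2 0 to 61 counts. Of 15 preadipocyte and fibroblast markers 12 passed too, with Col1a1 at 2275 to 22649 counts. Endothelial markers were all below the filter, with Cdh5 at 0 in every library, and so were all but 2 of 10 macrophage markers and 2 of 8 skeletal muscle markers, with Adgre1, C1qa, C1qb, Myod1 and Myf5 at 0.

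By labelled time, none of the 10 genes was called after norepinephrine. In edgeR's quasi-likelihood test 0 members passed an adjusted p of 0.05 at 4 h against 0 h, at 24 h against 0 h or at 24 h against 4 h, and the background was 0% of all genes in each comparison. With no gene of any kind called, this result does not show that norepinephrine left the members unchanged. Whether the labelled times follow the treatment was not tested. At an unadjusted p under 0.05 the members again numbered 0, against 1.17%, 1.07% and 0.926% of all genes. The members' log2 fold changes lay between -0.016 and 0.15 at 4 h against 0 h and between -0.074 and 0.19 at 24 h against 0 h. No member had labelled times whose values did not overlap, where the background was 0.0676% at 4 h and 0.0406% at 24 h against 0 h.

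Dusp1, the nuclear phosphatase of p38, JNK and ERK and an immediate early gene in many cells, had 27.0, 34.8 and 190.4 CPM as its lowest, median and highest values at 0 h. The corresponding values were 26.1, 35.6 and 210.5 CPM at 4 h and 28.2, 32.5 and 214 CPM at 24 h. Each labelled time thus held the same split into 4 low and 2 high libraries, and the times overlapped over almost their whole range. The mean was 83.7 ± 81.6 CPM at 0 h, 89.3 ± 88.6 CPM at 4 h and 91.9 ± 94.7 CPM at 24 h (SD, n = 6 each). Its log2 fold change of 0.14 at 24 h against 0 h had a 95% interval of -1.46 to 1.74.

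With the replicate number as a block, libraries were compared only with those of the same number, and the intervals narrowed. For Dusp1 the blocked log2 fold change at 24 h against 0 h was 0.091, with an interval of 0.0020 to 0.18, and 4 of 6 numbers were higher at 24 h. For Dusp5, which dephosphorylates ERK in the nucleus, it was 0.20, with an interval of 0.030 to 0.37, and again 4 of 6 numbers were higher. For Spry4 the blocked log2 fold change at 24 h against 4 h was -0.16, with an interval of -0.29 to -0.034, and 1 of 6 numbers was higher at 24 h. The unblocked Dusp5 value at 24 h against 0 h, 0.19, became -0.018 with library totals. None of the blocked differences passed edgeR's test after adjustment, where their adjusted p-values were 0.634, 0.544 and 0.921. Over the members and the 3 comparisons the blocked intervals ran from -0.29 to 0.37, and 2, 2 and 3 members had an unadjusted p under 0.05 at 4 h against 0 h, 24 h against 0 h and 24 h against 4 h, where 9.88%, 7.81% and 5.12% of all genes did. The block called 1 gene of all those tested, which was no member, at 24 h against 0 h.

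**Figure D1:**
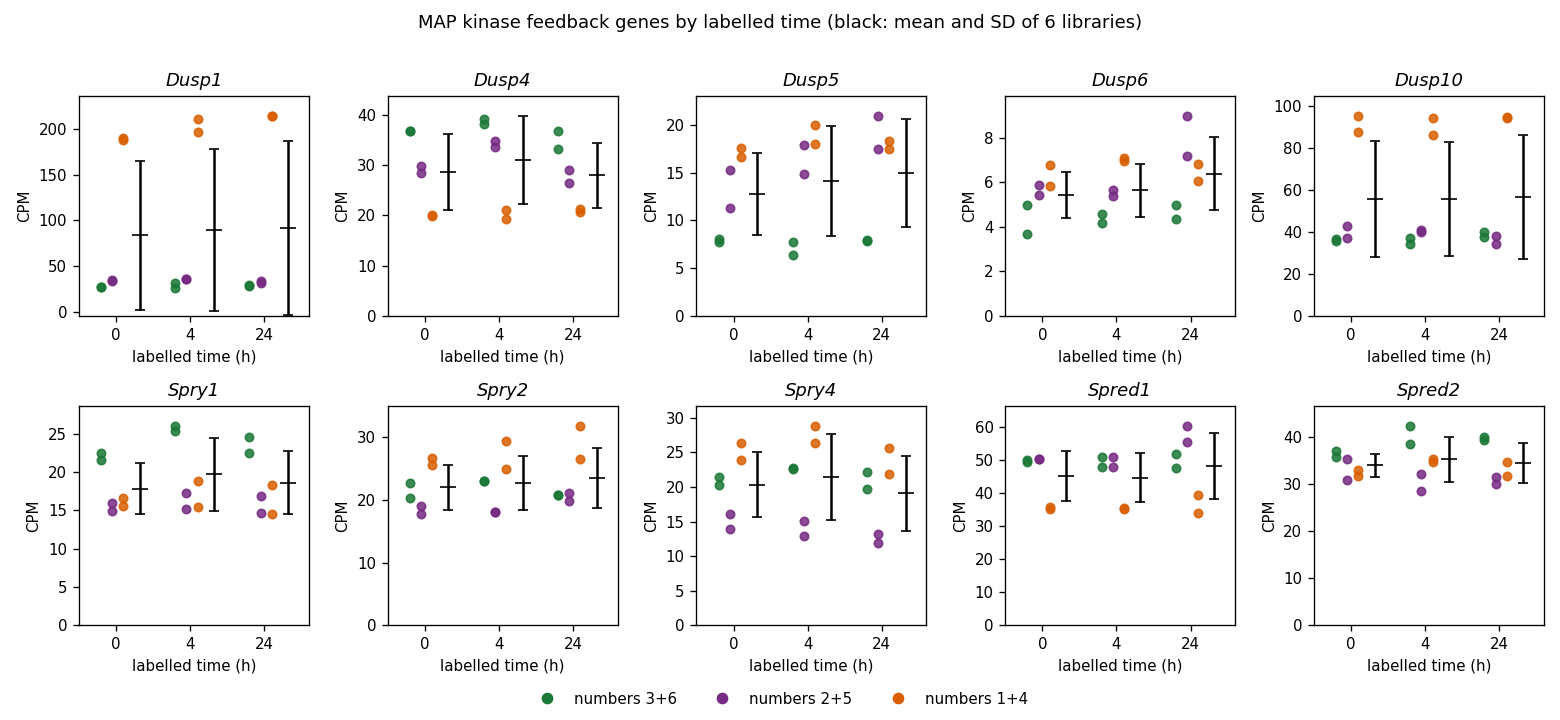
CPM of the 10 genes at 0 h, 4 h and 24 h after norepinephrine, 1 point per library, coloured by set of numbers, with the mean and SD of 6 libraries. Within each time Dusp1 has 2 libraries between 187 and 214 CPM and 4 between 26.1 and 35.6 CPM, and no gene has times that separate.

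The replicate numbers accounted for most of the variation instead. A test of any difference among the 6 numbers, with labelled time in the model, called 10 of the 10 members, against a background of 72.5% of all genes. Adjusted p-values from edgeR ran from 6.9e-25 for Dusp1 to 0.00044 for Spred2. Number explained from 71.2% of the variance of log2 CPM (Dusp6) to 99.6% (Dusp1), and labelled time from 0.00276% (Dusp10) to 8.82% (Dusp6). The medians over all tested genes were 72.0% for number and 3.78% for time. These shares are raw and not adjusted for the 6 groups by number and 3 by time, and noise alone would give number the larger share.

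**Figure D2:**
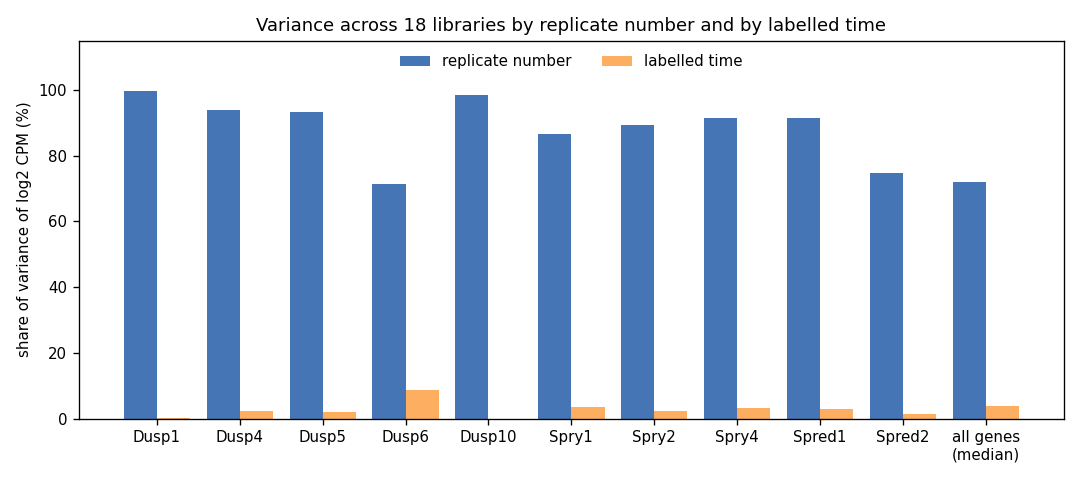
Percent of the variance of log2 CPM over 18 libraries that went with replicate number and with labelled time, for each of the 10 genes, with the medians of all tested genes. Number takes 71.2% to 99.6% and time at most 8.82%, as raw shares not adjusted for the 6 groups by number and 3 by time.

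Within a set the numbers were much closer to each other. The sets were recognised in these data, so this closeness follows from how they were formed and is no test of them. For number 4 against 1, 5 against 2 and 6 against 3, edgeR called 0 members in each, where all tested genes gave 1 call, 0 calls and 0 calls, or 0.00676%, 0% and 0%. At an unadjusted p under 0.05 the members numbered 1, 1 and 0, against 2.91%, 5.99% and 11.7% of all genes. The widest member differences were Spry2 in number 4 against 1 with a log2 fold change of 0.18 ± 0.069 (SE), Dusp5 in number 5 against 2 with 0.27 ± 0.12, and Dusp6 in number 6 against 3 with -0.26 ± 0.14. DESeq2, run on the same counts, also called 0 members within the sets.

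Between the sets, 6 members were called in numbers 2 and 5 against 1 and 4, 2 higher and 4 lower, where 38.4% of all genes were called, 19.2% higher and 19.3% lower. In numbers 3 and 6 against 1 and 4, 9 members were called, 3 higher and 6 lower, against a background of 38.4%, 19% higher and 19.4% lower. In numbers 3 and 6 against 2 and 5, 7 were called, 4 higher and 3 lower, against 34.1%, 16.4% higher and 17.8% lower. In the pairs taken singly, edgeR called 7, 6, 9, 10, 8 and 7 members for number 2 against 1, 5 against 4, 3 against 1, 6 against 4, 3 against 2 and 6 against 5, where 47.9%, 45.5%, 49.9%, 48%, 47.2% and 43.2% of all genes were called. The CPM of the sets did not overlap for 6, 9 and 5 members in these comparisons, where the shares of all genes were 35.3%, 38.6% and 29.8%. The median log2 fold change of the members was -0.14, -0.29 and 0.057, against -0.0038, 0.0044 and 0.0025 over all tested genes. With library totals in place of composition scaling the median gene shifted by -0.098, 0.16 and 0.26, and 3, 5 and 3 members were called. Those still called were Dusp1, Dusp10 and Spry4 in the first comparison, Dusp1, Dusp4, Dusp5, Dusp10 and Spry1 in the second, and Dusp5, Spry1 and Spry4 in the third. The composition scaling factor of 24 h replicate 5 was 0.430, against 0.913 to 1.15 in the other libraries, and library totals leave this uncorrected. The part of that library in the lost calls was not tested.

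Dusp1 had by far the widest difference. In the libraries numbered 3 and 6 its lowest, median and highest values were 26.1, 27.8 and 31.8 CPM, in numbers 2 and 5 they were 31.2, 34.8 and 35.6 CPM, and in numbers 1 and 4 they were 187, 203 and 214 CPM. All 6 libraries of numbers 1 and 4 were high and all others low, at every labelled time. Means were 28.4 ± 2.07, 34.3 ± 1.72 and 202 ± 12.2 CPM (SD, n = 6 each), so that Dusp1 was 7.12-fold lower in numbers 3 and 6, and 5.89-fold lower in numbers 2 and 5, than in numbers 1 and 4. The log2 fold changes against numbers 1 and 4 were -2.82 ± 0.043 (SE) for numbers 3 and 6 and -2.53 ± 0.044 for numbers 2 and 5. The pairs gave edgeR adjusted p-values of 5.2e-22 for number 3 against 1, 6.7e-22 for 6 against 4, 1.4e-20 for 2 against 1 and 7.0e-20 for 5 against 4.

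The lower sets also differed from each other. Numbers 3 and 6 against 2 and 5 gave a Dusp1 log2 fold change of -0.29 ± 0.048, with both pairs called, although the highest library of numbers 3 and 6, at 31.8 CPM, lay above the lowest of numbers 2 and 5, at 31.2 CPM. With library totals in place of composition scaling that difference was -0.013 and was not called. Dusp1 shares 11 exon bases with Ergic1, which lies on the opposite strand, and the strand setting of the counting is not given in the sources used here. Ergic1 had 101.3 ± 6.74 CPM in numbers 3 and 6, 73.0 ± 2.04 CPM in numbers 2 and 5 and 125 ± 1.27 CPM in numbers 1 and 4. Its log2 fold changes against numbers 1 and 4 were -0.30 ± 0.032 in numbers 3 and 6 and -0.77 ± 0.034 in numbers 2 and 5. The part of the overlap in the Dusp1 counts was not tested.

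Dusp10, a phosphatase that acts mainly on p38 and JNK, was the other gene with a large step at the set of numbers 1 and 4. Its lowest, median and highest values were 34.2, 36.8 and 40.2 CPM in numbers 3 and 6, 34.5, 39.0 and 42.7 CPM in numbers 2 and 5, and 86.2, 94.3 and 95.1 CPM in numbers 1 and 4. Numbers 1 and 4 thus lay above every other library, and the other sets overlapped almost fully. It was 2.49-fold lower in numbers 3 and 6 and 2.36-fold lower in numbers 2 and 5 than in numbers 1 and 4, with log2 fold changes of -1.31 ± 0.042 and -1.21 ± 0.043. Between numbers 3 and 6 and numbers 2 and 5 the log2 difference was -0.098, with an interval of -0.19 to -0.0046, neither pair was called, and the sign turned to 0.18 with library totals.

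**Figure D3:**
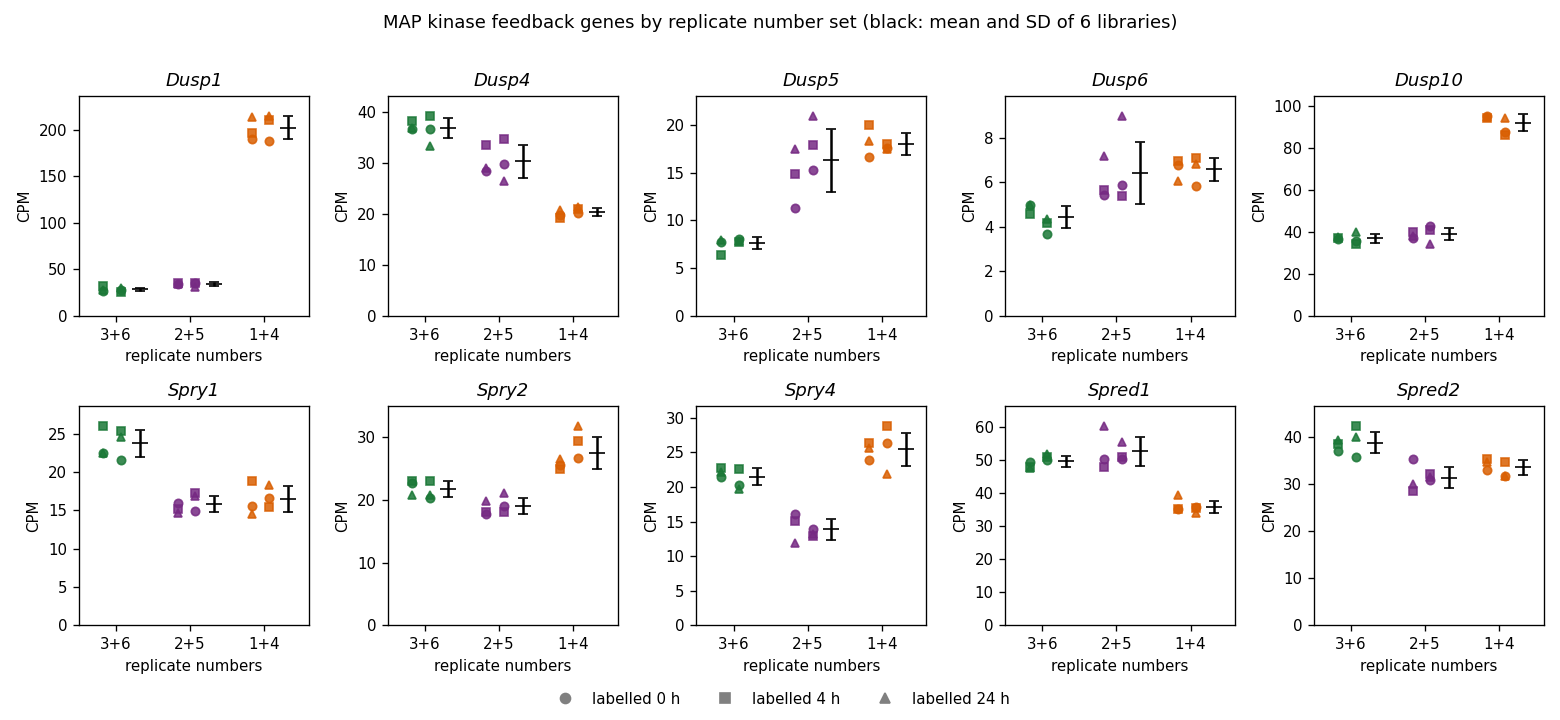
CPM of the 10 genes by set of replicate numbers, 1 point per library with the mean and SD of 6 libraries. Dusp1 and Dusp10 step up in numbers 1 and 4 (means of 202 and 92.0 CPM), Dusp5 steps down in numbers 3 and 6 (7.60 CPM), and Dusp4 and Spred1 are lowest in numbers 1 and 4.

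Dusp4, a nuclear phosphatase related to Dusp1, ran the opposite way. Its lowest, median and highest values were 33.3, 36.8 and 39.2 CPM in numbers 3 and 6, 26.5, 29.4 and 34.8 CPM in numbers 2 and 5, and 19.3, 20.5 and 21.3 CPM in numbers 1 and 4. Numbers 1 and 4 lay below every other library, while numbers 3 and 6 and numbers 2 and 5 overlapped. Log2 fold changes were 0.85 ± 0.048 in numbers 3 and 6 and 0.59 ± 0.051 in numbers 2 and 5 against numbers 1 and 4, with both pairs called in each. Against numbers 2 and 5, numbers 3 and 6 gave 0.26 ± 0.048. That call was lost without the library 0 h replicate 5 or 0 h replicate 6. The log2 fold changes were then 0.25 and 0.24, and the larger edgeR adjusted p of the pairs was 0.114 and 0.0887.

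Dusp5 marked a different set. It had 6.34, 7.79 and 8.06 CPM as lowest, median and highest values in numbers 3 and 6, 11.3, 16.3 and 20.9 CPM in numbers 2 and 5, and 16.6, 17.7 and 20.0 CPM in numbers 1 and 4. Every library of numbers 3 and 6 lay below every other library, and numbers 2 and 5 ran from below to above the range of numbers 1 and 4. The log2 fold change of numbers 3 and 6 was -1.24 ± 0.080 against numbers 1 and 4 and -1.06 ± 0.085 against numbers 2 and 5. Between numbers 2 and 5 and numbers 1 and 4 it was -0.19 ± 0.077, where number 2 against 1 had an edgeR adjusted p of 0.0102 and number 5 against 4 one of 0.829. Within numbers 2 and 5 the values at 0 h, 4 h and 24 h were 11.3, 14.8 and 17.4 CPM in number 2 and 15.3, 17.9 and 20.9 CPM in number 5. Both numbers were higher at each later time, an order chosen for mention after its values were seen and not tested, and the other 4 numbers did not show it.

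Dusp6, the cytoplasmic phosphatase specific for ERK and a common readout of ERK activity, was the least abundant member, with 27 to 180 counts per library. It averaged 4.45 ± 0.499 CPM in numbers 3 and 6, 6.41 ± 1.41 CPM in numbers 2 and 5 and 6.58 ± 0.524 CPM in numbers 1 and 4 (SD, n = 6 each). Numbers 3 and 6, at 3.65 to 4.96 CPM, lay below all other libraries, the same place in the order that Dusp5 had. The log2 fold change of numbers 3 and 6 was -0.58 ± 0.096 against numbers 1 and 4 and -0.48 ± 0.10 against numbers 2 and 5. The call against numbers 2 and 5 was lost without 4 h replicate 3, 24 h replicate 2 or 24 h replicate 3, with log2 fold changes of -0.46 to -0.41 and a larger edgeR adjusted p of the pairs of 0.113 to 0.279. It was also lost in DESeq2, with a larger adjusted p of 0.0809, and with no filter on low counts in edgeR, with one of 0.0591. Numbers 2 and 5 against 1 and 4 gave -0.10, with an interval of -0.30 to 0.097.

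The Sprouty genes encode membrane-linked inhibitors that act between receptor tyrosine kinases and RAF. Spry1 was highest in numbers 3 and 6, with lowest, median and highest values of 21.5, 23.5 and 26.0 CPM, against 14.7, 15.5 and 17.3 CPM in numbers 2 and 5 and 14.5, 16.05 and 18.8 CPM in numbers 1 and 4. All libraries of numbers 3 and 6 lay above the rest and the other sets overlapped. The log2 fold change of numbers 3 and 6 was 0.53 ± 0.059 against numbers 1 and 4 and 0.59 ± 0.063 against numbers 2 and 5, while numbers 2 and 5 against 1 and 4 gave -0.062 with an interval of -0.20 to 0.073. Spry1 shares 710 exon bases with Gm42922 on the opposite strand and Dusp5 shares 547 with AC137853.2, and both partners were below the filter.

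Spry4 was instead lowest in numbers 2 and 5. It had 19.6, 21.8 and 22.7 CPM as lowest, median and highest values in numbers 3 and 6, 11.95, 13.6 and 16.1 CPM in numbers 2 and 5, and 21.8, 25.9 and 28.8 CPM in numbers 1 and 4. Numbers 2 and 5 lay below all others, and numbers 3 and 6 overlapped numbers 1 and 4. Numbers 2 and 5 against 1 and 4 had a log2 fold change of -0.89 ± 0.063, and numbers 3 and 6 against 2 and 5 gave 0.64 ± 0.064. Against numbers 1 and 4, numbers 3 and 6 gave -0.25 ± 0.056, with edgeR adjusted p-values of 0.0439 for number 3 against 1 and 0.00228 for 6 against 4. That call depended on single libraries: it was lost without any one of 10 of the 18, namely 0 h replicates 3, 4, 5 and 6, 4 h replicates 1, 3, 5 and 6, and 24 h replicates 1 and 6. Over these, the log2 fold change lay between -0.26 and -0.21 and the larger adjusted p between 0.0501 and 0.306. It was also lost in DESeq2, at -0.26 with a larger adjusted p of 0.0917.

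Spry2 followed the order of Spry4 with a narrower range. Its means were 21.8 ± 1.26 CPM in numbers 3 and 6, 19.0 ± 1.32 CPM in numbers 2 and 5 and 27.5 ± 2.62 CPM in numbers 1 and 4 (SD, n = 6 each). Numbers 1 and 4 lay above all others, between 24.9 and 31.8 CPM. The log2 fold change against numbers 1 and 4 was -0.33 ± 0.050 in numbers 3 and 6 and -0.53 ± 0.054 in numbers 2 and 5. The first of these was not called without 0 h replicate 1 or without 24 h replicate 3, at log2 fold changes of -0.32 and -0.29 and larger edgeR adjusted p-values of 0.0539 and 0.169. Numbers 3 and 6 against 2 and 5 gave 0.20, with an interval of 0.088 to 0.31, and only number 3 against 2 was called.

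The SPRED proteins bind neurofibromin, a RAS inactivator, and bring it to the membrane. Spred1 had 47.6, 49.6 and 51.8 CPM as lowest, median and highest values in numbers 3 and 6, 47.8, 50.6 and 60.2 CPM in numbers 2 and 5, and 33.9, 35.3 and 39.4 CPM in numbers 1 and 4. Numbers 1 and 4 lay below every other library, and the sets of numbers 3 and 6 and numbers 2 and 5 overlapped. Log2 fold changes were 0.46 ± 0.044 in numbers 3 and 6 and 0.55 ± 0.045 in numbers 2 and 5 against numbers 1 and 4. Between numbers 3 and 6 and numbers 2 and 5 it was -0.086, with an interval of -0.18 to 0.0046, and with library totals 0.19.

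Spred2 had a narrow range and stood highest in numbers 3 and 6. It averaged 38.9 ± 2.31 CPM in numbers 3 and 6, 31.5 ± 2.27 CPM in numbers 2 and 5 and 33.6 ± 1.62 CPM in numbers 1 and 4 (SD, n = 6 each). Numbers 3 and 6 against 2 and 5 gave a log2 fold change of 0.29 ± 0.051 with both pairs called. Against numbers 1 and 4 it was 0.21 ± 0.048 without overlap of the values, but number 3 against 1 had an edgeR adjusted p of 0.0508 and so the gene was not called. It was called there when any one of 7 libraries was left out, namely 0 h replicates 2, 5 and 6, 4 h replicates 2, 5 and 6, and 24 h replicate 6, with log2 fold changes of 0.19 to 0.25 and larger adjusted p-values of 0.0137 to 0.0498, and with no filter on low counts, at 0.21 with one of 0.0432. Numbers 2 and 5 against 1 and 4 gave -0.089, with an interval of -0.20 to 0.018.

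**Figure D4:**
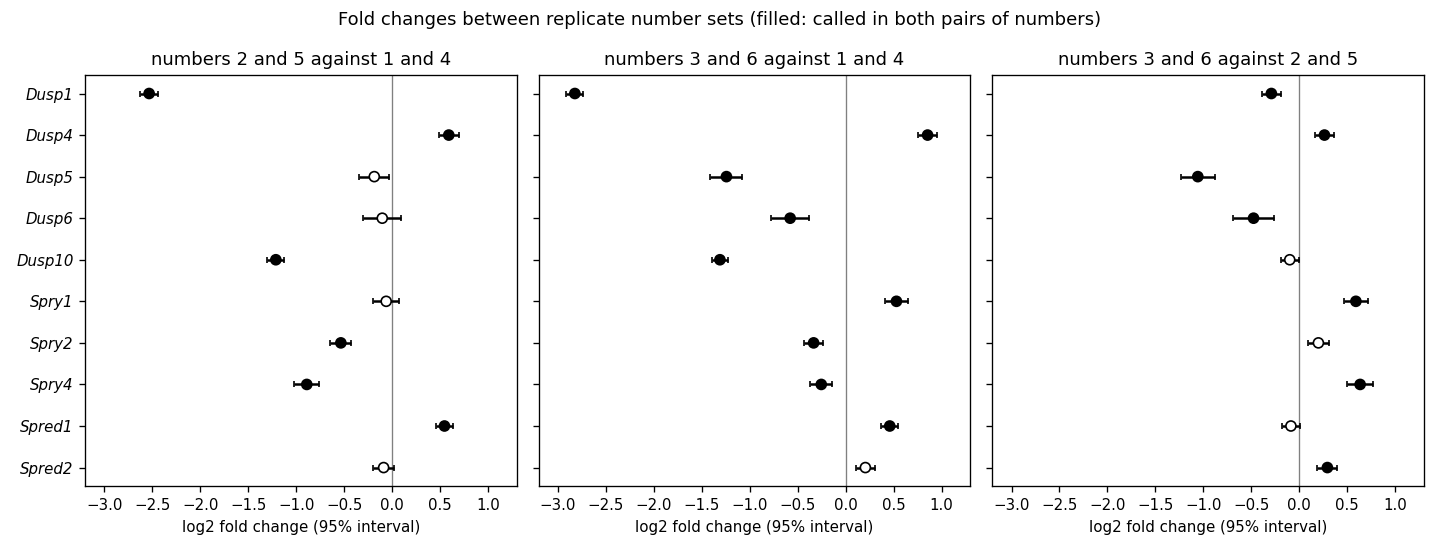
Log2 fold changes of the 10 genes between sets of replicate numbers, with 95% intervals, where filled points have both pairs of numbers called. Dusp1 reaches -2.82 and -2.53 against numbers 1 and 4, and most other values lie within 1 log2 unit of 0.

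Compared per length, as CPM per kilobase of merged exons (GENCODE M21, mm10), the members' mean levels over all libraries ran in the order Dusp1 (26.7), Dusp10 (18.4), Spry2 (10.9), Dusp4 (10.7), Spred2 (7.50), Spred1 (6.77), Spry1 (6.43), Dusp5 (5.64), Spry4 (4.26) and Dusp6 (1.86). Which gene led depended on the set. In numbers 3 and 6, Dusp4 led with 13.5 and Dusp10 followed with 12.1 CPM per kilobase. In numbers 2 and 5, Dusp10 led with 12.8 against 11.1 for Dusp4. In numbers 1 and 4, Dusp1 led with 61.1 and Dusp10 followed with 30.2, while Dusp4 had 7.44 CPM per kilobase.

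Across the 18 libraries, which share the sets, some pairs of members had like profiles. Pearson's r of log2 CPM was 0.994 between Dusp1 and Dusp10, 0.855 between Dusp5 and Dusp6, 0.824 between Spry1 and Spred2 and 0.772 between Spry2 and Spry4. It was -0.929 between Dusp1 and Dusp4 and -0.930 between Dusp1 and Spred1. These pairs are not separate groups: Spry2 had a higher r with Dusp1 (0.814) and Dusp10 (0.800) than with Spry4. Dusp4 and Spred1 had an r of 0.786. With 3 clusters of libraries these values describe mainly the differences between sets, so they are given with no p-value.

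**Figure D5:**
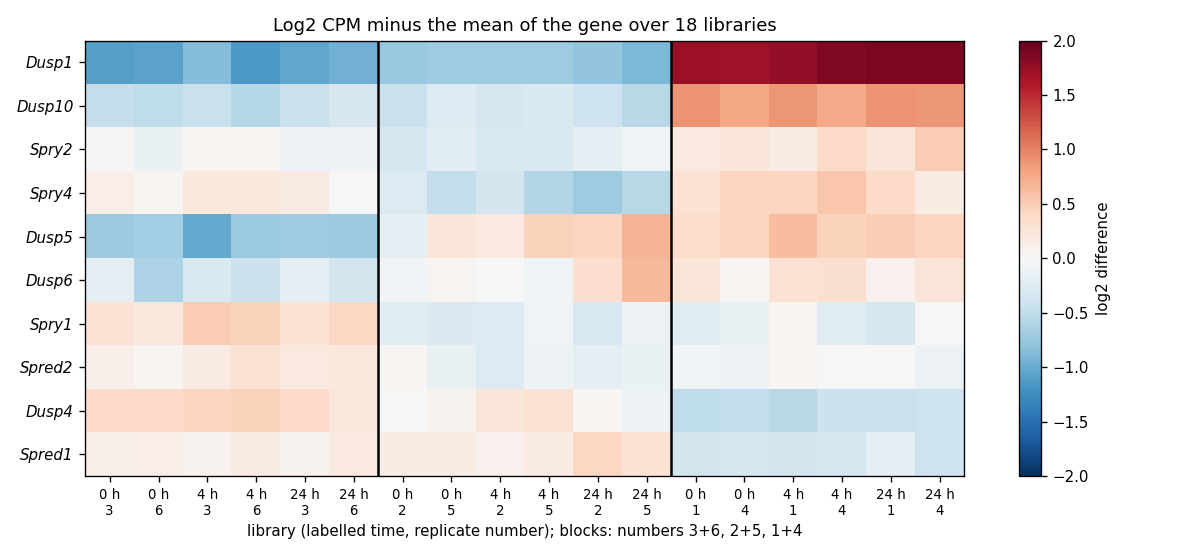
Log2 CPM of the 10 genes in the 18 libraries, each gene shown as its difference from its own mean, with libraries ordered by set, labelled time and number. Blocks of like colour follow the sets: Dusp1 and Dusp10 are high in numbers 1 and 4, Spry1 and Spred2 are high in numbers 3 and 6, and Spry4 is low in numbers 2 and 5.

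Among 9042 other named genes of sufficient level, those with the profile nearest to each member over the 18 libraries were picked by r. Dusp1 was nearest to Egr1 and Fos (0.995 each), immediate early transcription factors, and Dusp10 to Amer1 (0.994) and Egr1 (0.989). Dusp4 was nearest to Adamts7 (0.983) and Heatr1 (0.974), Dusp5 to Nrg4 (0.981) and March5 (0.960), and Dusp6 to Mrpl54 and Atp1b1 (0.897 each). Spry1 was nearest to Src (0.951) and Gulp1 (0.945), Spry2 to Mark3 (0.936) and Smpd1 (0.933), and Spry4 to Elk1 (0.972) and Tmem120b (0.967). Spred1 was nearest to Emb (0.973) and Samhd1 (0.970), and for Spred2 an r of 0.899 was found with Wbp5.

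Of 23 tested genes known to be transcribed in response to ERK, 6 were called higher and 14 lower in numbers 2 and 5 against 1 and 4, and 6 higher and 13 lower in numbers 3 and 6 against 1 and 4. Of all genes, 19.2% were called higher and 19.3% lower in the first comparison, and 19% and 19.4% in the second. The list's median log2 fold changes were -0.40 and -0.53, and -0.51 and -0.37 with library totals. Egr1 had 163 ± 15.5 CPM in numbers 3 and 6, 174 ± 6.26 CPM in numbers 2 and 5 and 1189 ± 148 CPM in numbers 1 and 4 (SD, n = 6 each). Fos, part of the AP-1 transcription factor, had 3.41 ± 0.645, 5.48 ± 1.19 and 182 ± 42.8 CPM in the same order of sets, with log2 fold changes of -5.77 ± 0.11 in numbers 3 and 6 and -4.95 ± 0.11 in numbers 2 and 5 against numbers 1 and 4. Egr2 differed by -4.33 ± 0.067 and -3.77 ± 0.068 in the same comparisons. In numbers 3 and 6 against 2 and 5, 4 of the list were higher and 9 lower (1 and 1 with library totals), against 16.4% and 17.8% of all genes with composition scaling. Junb (-0.95 ± 0.10) and Maff (-0.91 ± 0.068) had the widest differences of the list there among genes with a mean log2 CPM of at least 3.

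Other phosphatases and inhibitors showed no common direction. A list of 11 further tested genes held DUSP genes and the related Styx. In numbers 2 and 5 against 1 and 4, 2 of them were higher and 3 lower. In numbers 3 and 6 against 1 and 4, 2 were higher and 3 lower, and in numbers 3 and 6 against 2 and 5, 3 higher and 4 lower. The share of all genes called in either direction was 38.4%, 38.4% and 34.1%, the background for the other inhibitors below too. Dusp7, like Dusp6 a cytoplasmic ERK phosphatase, had 26.5 ± 2.26 CPM in numbers 3 and 6, 15.7 ± 0.625 CPM in numbers 2 and 5 and 13.6 ± 0.502 CPM in numbers 1 and 4, so it was highest where Dusp6 was lowest. Dusp18 differed by a log2 fold change of -1.25 ± 0.088 (SE) in numbers 2 and 5 against 1 and 4. It was higher by 0.78 ± 0.090 in numbers 3 and 6 than in numbers 2 and 5. Dusp22 was higher by 0.41 ± 0.051 in numbers 2 and 5 than in numbers 1 and 4. Dusp16, which acts on JNK and p38, was lower in numbers 3 and 6 than in numbers 1 and 4 by a log2 fold change of -0.52 ± 0.050. Dusp8, also a phosphatase of JNK and p38, is named after its values were seen and lies below the level set for named genes, with a mean log2 CPM of 2.78. It had 3.48 ± 0.297 CPM in numbers 3 and 6, 6.32 ± 1.37 CPM in numbers 2 and 5 and 14.2 ± 1.01 CPM in numbers 1 and 4 (SD, n = 6 each), with both pairs called lower in numbers 3 and 6 and in numbers 2 and 5 than in numbers 1 and 4. Of 22 other inhibitors of RAS to ERK signalling, 6, 7 and 5 were higher and 6, 6 and 7 lower in numbers 2 and 5 against 1 and 4, 3 and 6 against 1 and 4, and 3 and 6 against 2 and 5. Rasa3, a RAS GTPase activator, was higher by 1.16 ± 0.035 in numbers 2 and 5 and by 0.99 ± 0.035 in numbers 3 and 6 against numbers 1 and 4, and Errfi1, an inhibitor of the EGF receptor, was lower by -0.66 ± 0.040 in numbers 3 and 6. Paqr3, which holds RAF at the Golgi, was likewise chosen after its values were seen, at a mean log2 CPM of 2.88. It was lower than in numbers 1 and 4 by log2 fold changes of -1.80 ± 0.075 in numbers 3 and 6 and -1.53 ± 0.078 in numbers 2 and 5.

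Upstream of the members, more receptor tyrosine kinases were higher than lower against numbers 1 and 4. Of 17 tested, 7 were higher and 1 lower in numbers 2 and 5 against 1 and 4, and 10 higher and 3 lower in numbers 3 and 6 against 1 and 4, with medians of 0.38 and 0.35. With library totals 3 were higher and 0 lower, and 6 higher and 0 lower, in these comparisons. With composition scaling, 19.2% of all genes were higher and 19.3% lower in the first comparison, and 19% and 19.4% in the second. These shares are the background for the core, adaptor, ERK5, p38 and JNK lists below as well. Fgfr2, a receptor for fibroblast growth factors, was higher by a log2 fold change of 1.31 ± 0.051 and Igf1r by 1.25 ± 0.046 in numbers 2 and 5 against 1 and 4. Pdgfra was higher by 1.21 ± 0.081 in numbers 3 and 6 against 1 and 4, and it is also a preadipocyte marker. Of 24 genes of the RAS, RAF, MEK and ERK core, 5 were higher and 7 lower in numbers 2 and 5 against 1 and 4, and 0 higher and 8 lower in numbers 3 and 6 against 1 and 4, with medians of -0.049 and -0.088, the second of which turned to 0.078 with library totals. Of 15 adaptors and exchange factors between receptor and RAS, 5 were higher and 2 lower, and 3 higher and 3 lower, in the same comparisons, and of 8 entries for ERK5 and atypical MAP kinases, 2 of which are separate gene IDs named Mapkapk5 and were not called, 1 was higher and 1 lower, and 1 higher and 2 lower. Of 24 p38 and JNK pathway genes, 6 were higher and 4 lower, and 3 higher and 5 lower, in the same comparisons. Gadd45a, a stress-induced activator of that pathway, had 8.42 ± 0.611 CPM in numbers 3 and 6, 22.0 ± 2.18 CPM in numbers 2 and 5 and 35.9 ± 1.33 CPM in numbers 1 and 4. In numbers 3 and 6 against 2 and 5, 5 of the p38 and JNK list were higher and 11 lower, with a median of -0.19. With library totals 3 were higher and 1 lower, with a median of 0.090. With composition scaling, 6 receptors were higher and 7 lower there, and 2 and 6 of the core. For adaptors the counts were 2 and 4, and for the ERK5 list 0 and 2. Of all genes, 16.4% were higher and 17.8% lower. No gene of any of these lists was called for a labelled time.

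Markers of less mature cells moved with the sets as well. Of 15 preadipocyte and fibroblast markers 12 were tested, and 6 were higher and 0 lower in numbers 2 and 5 against 1 and 4, 11 higher and 0 lower in numbers 3 and 6 against 1 and 4, and 9 higher and 0 lower in numbers 3 and 6 against 2 and 5. Of all genes, 19.2%, 19% and 16.4% were called higher and 19.3%, 19.4% and 17.8% lower in these comparisons. With library totals the marker counts were 0, 11 and 6 higher and 0 lower in each. Their summed level, over the tested markers, was 2254 to 2837 CPM in numbers 3 and 6, 1456 to 2180 CPM in numbers 2 and 5 and 1117 to 1284 CPM in numbers 1 and 4. Of the 14 tested brown adipocyte markers, 2 were higher and 7 lower, 4 higher and 6 lower, and 5 higher and 3 lower in the same comparisons, and with library totals 1 and 4, 3 and 4, and 3 and 2. Their summed level was 3912 to 4739 CPM, 3668 to 4299 CPM and 4448 to 4715 CPM in the same order of sets. The part of this shift in the members' differences was not tested, and in bulk RNA fewer cells of a type and less RNA per cell cannot be told apart.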

How the data were processed

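Total RNA was sequenced as 52-base pairs from 18 libraries, all in batch 1, made from 250 ng of RNA with a strand-selecting, rRNA-depleting kit, per the labels. The authors deposited expected counts per gene estimated with salmon, with fractions in 27.4% of the nonzero values. Per the submitters' processing notes, edgeR, limma and mm10 were used. Not given in the sources used here were the strand setting, the annotation and the version of salmon. Salmon divides reads between near-identical transcripts, so overlapping and duplicated genes are uncertain.

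Expected counts were rounded, filtered (filterByExpr, minimum count 10, minimum total 15) and scaled by trimmed mean of M values. The 14788 genes kept held at least 99.9% of each library's counts. Robust quasi-likelihood tests in edgeR covered all 18 libraries, for labelled time alone and for replicate number with labelled time, with two-sided p-values adjusted by Benjamini-Hochberg over all genes at 0.05. Log2 CPM used a prior count of 2, and intervals are 95% intervals of the model. Libraries of the same number deviated together from the means of their times (r of 0.297 to 0.718, median 0.590, over 18 pairs). Different numbers of 1 set did so almost as much (0.237 to 0.688, median 0.569), and r was at most 0.0178 between sets. Numbers were taken to pair the libraries in the block, but these values follow the sets and do not show pairing by number within a set. The procedure was tested on simulated data.

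The members, the sets of numbers and the gene lists were chosen with earlier results of these data known, and no list's direction is independent evidence. From each list, genes named were all members, or the 2 with the widest set difference called in both pairs (a few of these are described), plus the 2 nearest profiles per member, both among genes with a mean log2 CPM of at least 3 (1 for Spred2 is not reported here). Alternatives were the replicate block, DESeq2, limma-voom with and without the block and library weights, DESeq2 size factors, no filter, leaving out libraries, and library totals. The last, and most single-library omissions, were added after seeing the data. Analyses ran in Python 3.11.15 (matplotlib 3.10.9, pandas 2.3.3, scipy 1.17.1, numpy 2.4.6) and R 4.3.3 with DESeq2 1.42.0, limma 3.58.1 and edgeR 4.0.16.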

Additional observations from a re-analysis of the deposited data

Results flagged for a closer look

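Among 60 groups of 6 libraries (10 genes by 3 labelled times and by 3 sets of numbers), 2 held a library far from the others, where chance gives about 1 in 20 groups. For Dusp5 in numbers 3 and 6, the library 4 h replicate 3 had 6.34 CPM, against 7.69 to 8.06 CPM in the other 5, a gap of 0.782 of the group's range. For Spred1 in numbers 1 and 4, the library 24 h replicate 1 had 39.4 CPM, against 33.9 to 35.8 CPM in the other 5, a gap of 0.657 of the range. Both exceeded the critical value of 0.625. Dusp5 in numbers 3 and 6 and Spred1 in numbers 1 and 4 lay below every library of the other sets with these libraries included.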

How the results depend on the processing

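For the labelled times, the replicate block called 1 gene at 24 h against 0 h and limma-voom with the block and library weights called 9, no member among them. The block changed no other call. Some members' fold changes, none of them called, turned sign: Dusp10 at 4 h against 0 h to 0.00062 in DESeq2, 0.020 in limma-voom and 0.0034 with DESeq2 size factors, Dusp4 at 24 h against 0 h to 0.016 in limma-voom, and Dusp5 at 24 h against 4 h to -0.051 in limma-voom and to -0.051 without 24 h replicate 5. With library totals, those at 24 h against 0 h became -0.018 (Dusp5), -0.11 (Dusp10), -0.083 (Spry1), -0.074 (Spry2), -0.096 (Spred1) and -0.12 (Spred2), and those at 24 h against 4 h -0.066 (Dusp1), -0.15 (Dusp5), -0.048 (Dusp6), -0.097 (Dusp10), -0.11 (Spry2) and -0.071 (Spred1). Library totals leave the composition of 24 h replicate 5 uncorrected, and the part of that library in these sign changes was not tested.

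For the numbers, library totals called 4817 genes for any difference, against 10715 with composition scaling. The sets then gave 1064 genes and 3 members in numbers 2 and 5 against 1 and 4 (5685 and 6 with scaling), 1527 and 5 in 3 and 6 against 1 and 4 (5674 and 9), and 1170 and 3 in 3 and 6 against 2 and 5 (5050 and 7). Within sets they called 2, 23 and 7 genes for number 4 against 1, 5 against 2 and 6 against 3. DESeq2 called 2, 5 and 71 there, and no filter gave 2 for 4 against 1 and 69 for 6 against 3. The sign turned to 0.18 for Dusp10 and 0.19 for Spred1 in 3 and 6 against 2 and 5. In single comparisons of sets, DESeq2 lost the calls of Spry4 and Dusp6 given above and no filter lost that of Dusp6 and gained Spred2. The cause of these changes was not tested.

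Over 21 fits that left out 1 library, or all libraries of 1 labelled time, the genes called were 8549 to 10789 for any difference, 3966 to 5772, 4214 to 5801 and 3366 to 5053 for the sets in the order above, and 0 to 1, 0 to 3 and 0 to 407 within sets. Members called were 10 for any difference, 6, 7 to 10 and 5 to 7 for the sets, and 0 within sets. Without the libraries labelled 0 h, 6 against 3 reached 407 genes. Dusp6 in 2 and 5 against 1 and 4 ran from -0.25 to 0.039, the last without the libraries labelled 4 h. Calls lost without all libraries of 1 time were Spry4 (each time), Spry2 (24 h) and Dusp6 (4 h) in 3 and 6 against 1 and 4, and Dusp6 (each time), Dusp4 (0 h) and Spred2 (24 h) in 3 and 6 against 2 and 5.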
